A study of Mus musculus with 3 samples.

Results

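Krüppel-like factors are transcription factors that bind GC-rich and CACCC-type sequences through zinc fingers at their C-terminal end, and differ in the activators or repressors that their other end recruits. In fat cell formation they act on both sides. Klf4 and Klf5 belong to the early wave after hormonal induction, Klf6, Klf9 and Klf15 promote later steps, and Klf2, Klf3 and Klf7 hold differentiation back. Transcripts of 10 of these genes, Klf2, Klf3, Klf4, Klf5, Klf6, Klf7, Klf9, Klf10, Klf13 and Klf15, are described here out of 20142 genes with a named probe on every array. The members were chosen by name, with earlier results of these data known, and each was matched by RefSeq accession to 1 probe.

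The cells were 3T3-L1, an established mouse line of fibroblast-like preadipocytes that turn into lipid-storing adipocytes in culture. RNA was taken at 2, 8 and 20 days after differentiation was started, and the study's stated subject is gene expression in adipocyte hypertrophy, in which fat cells grow larger with the lipid they store. The labels name no genetic change and no treatment that differs between the days, and do not give the contents of the induction medium. Each day was represented by 1 array, so no difference could be tested and every comparison below is between 2 arrays. The error given is a technical SD, estimated from the probes that each array carries in 10 spots, and holds the spread between spots, not between cultures. In total RNA from a whole culture, fewer cells of a kind and less RNA per cell cannot be told apart.

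Each array had 43020 spots that were not controls, of which 55.3% to 56.9% were well above background. Levels are log2 of the processed intensity relative to the 75th percentile of the same array, taken over probes that are not controls, so a level of 0 is the brightness at that percentile, and levels are compared between days within a probe, not between probes. Adipocyte markers were well above background for 8 of 9 genes on day 2, the exception being Lep, which encodes leptin, and for 9 of 9 on days 8 and 20. Of 8 measured on both days, 3 passed 2-fold upward on day 8 against day 2, the adipsin gene Cfd (6.46), the adiponectin gene Adipoq (3.83) and Slc2a4 (3.42), and 0 downward, with Plin1 (0.80), Retn (0.73), Lpl (0.50), Cidec (0.02) and Fabp4 (-0.05) between. Preadipocyte and fibroblast markers were above background for 9 of 9 on every day. On day 8 against day 2, 4 of these 9 passed 2-fold upward and 1 downward, and the median was 0.77 in both marker lists. On day 20 against day 2, 8 of the 9 passed upward and 0 downward (median 1.57), against 3 and 0 of 8 adipocyte markers (median 0.48). The summed scaled signal of the preadipocyte and fibroblast markers was 93.6, 138 and 246 on days 2, 8 and 20. That of the adipocyte markers was 917, 1964 and 1256. Such sums weigh bright probes most, among them that of Dlk1 in the first list (levels 5.47, 5.02 and 6.49 on days 2, 8 and 20). The part of these marker differences in the values below was not tested. Of the endothelial markers 2 or 3 of 8 were above background, with Cdh5, Tek, Tie1 and Erg below it on all 3 arrays, and of the macrophage markers 2 of 6, with Adgre1, Ptprc, Lyz2 and Mrc1 below it. Of the muscle markers 3 of 7 were above it on every day (summed scaled signal 0.279, 1.35 and 1.44), without Myog, Myod1, Ckm and Myh4, and of the epithelial markers 1 to 3 of 6 (0.526, 3.94 and 2.38), without Cdh1, Krt8 and Krt5. Summed signals were 4.67, 4.32 and 2.81 for the endothelial and 8.89, 10.5 and 4.93 for the macrophage markers.

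All 10 members were well above background on all 3 arrays. Of all 20142 genes, 12489, 12836 and 12574 were so on days 2, 8 and 20. Of 7 further Klf genes, 4 were so on all 3 arrays. Because the members were chosen with earlier results of these data known, 10 of 10 may follow from that choice. Between day 2 and day 8, Klf15, Klf2 and Klf6 had day 8 levels at least 2-fold higher and Klf5 a day 8 level at least 2-fold lower. That is 3 of 10 higher and 1 of 10 lower. Among all 12044 genes measured in that comparison, 13.8% passed 2-fold upward and 12.9% downward, 26.7% in either direction. Klf15, Klf2 and Klf5 also passed 4-fold, against 5.16% of measured genes higher and 3.19% lower by that much. Klf2 was under 4-fold (1.42) with normexp, a background correction run here with an offset of 50 added to every intensity. That offset by itself shrinks differences of dim spots. The other 6 members lay between -0.84 and 0.92 on the log2 scale. The median of the 10 differences was 0.80, against -0.06 for all measured genes. The counts describe these arrays and were not tested.

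**Figure D1:**
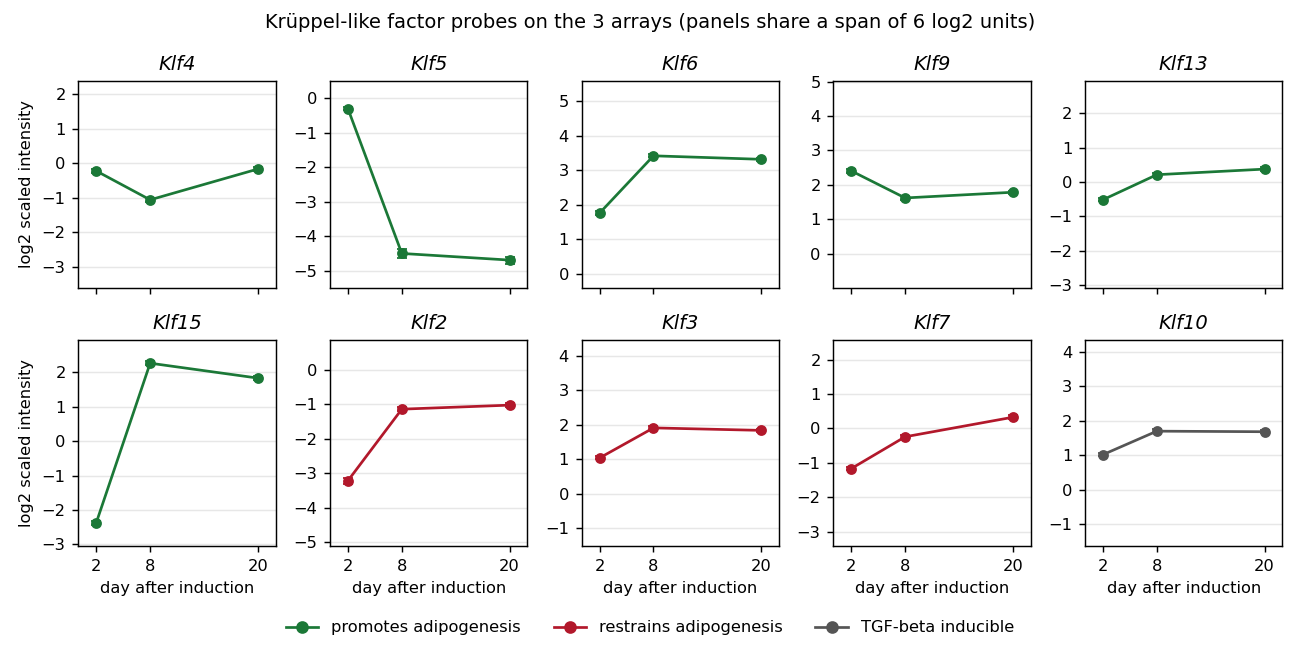
Level of each Krüppel-like factor probe (log2 processed intensity minus the 75th percentile of the array) against days after induction, 1 array per day. Bars are the technical SD of a single spot, colours give the role of each factor in adipogenesis, and every panel spans 6 log2 units, so slopes can be compared between panels. Klf5 lay at -0.30 on day 2 and at -4.50 and -4.69 on days 8 and 20, whereas Klf15 lay at -2.37, 2.26 and 1.83.

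Among the factors that promote adipogenesis, Klf5 and Klf15 differed the most between days, in opposite directions. Klf5, which is switched on by C/EBP-beta and C/EBP-delta and acts on the Pparg promoter, had a level of -0.30 on day 2, -4.50 on day 8 and -4.69 on day 20. Day 2 stood far above both later days, which lay close together. The day 8 level was 18.4-fold lower than that of day 2 (log2 difference -4.20, technical SD 0.132), and 1.51% of measured genes differed by as much in either direction. Its processed intensity, already corrected for background, was 538 on day 2 but 28.2 and 35.9 on days 8 and 20. The lowest levels marked well above background on those 2 arrays were -5.76 and -5.91. The size of the difference rests on the dim spots of days 8 and 20. It was -2.67 with normexp background correction, where the added offset by itself makes such a difference smaller.

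Klf15, a factor of mature adipocytes that raises transcription of the insulin-responsive glucose transporter gene Slc2a4, had levels of -2.37, 2.26 and 1.83 on days 2, 8 and 20. Both later days lay above day 2. The day 8 level was 24.7-fold higher than that of day 2 (4.63, technical SD 0.0767), and 1.08% of measured genes differed by as much. Its day 2 intensity was 128, and its level that day lay clear of the lowest one marked well above background on that array (-5.70).

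Klf6, which represses the preadipocyte gene Dlk1, had levels of 1.75, 3.42 and 3.31 on days 2, 8 and 20. It was 3.16-fold higher on day 8 than on day 2 (1.66, technical SD 0.0621). Klf13, known from pig adipocytes as an activator of Pparg, was at -0.52, 0.21 and 0.37, which is 1.65-fold higher on day 8 (0.73, technical SD 0.0732). In Klf6 the later days differed from each other by less than 2 technical SDs, and in Klf13 by slightly more.

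The remaining members of this class were lower on day 8 than on day 2. Klf4, which acts with Egr2 on the Cebpb promoter in the first hours of differentiation, was at -0.22, -1.06 and -0.16 on days 2, 8 and 20. It was 1.79-fold lower on day 8 (-0.84, technical SD 0.0728), and in the main values its day 20 level was within 1 technical SD of that of day 2. This depended on the scaling. Day 20 stood above day 2 by 0.21 with cyclic loess and by 0.25 with the percentile over probes well above background on all 3 arrays. With scaling on the spike-in probes it stood above by 0.74. All of these exceed 2 technical SDs. Klf9, a glucocorticoid-responsive factor that acts on the Pparg promoter together with C/EBP-alpha, was at 2.41, 1.62 and 1.79. It was 1.72-fold lower on day 8 than on day 2 (-0.78, technical SD 0.0685). Of the 6 promoting factors, 3 were thus higher and 3 lower on day 8, a share near the 46.4% of all measured genes that were higher.

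The 3 factors that restrain adipogenesis were higher on day 8 than on day 2, as were 46.4% of all measured genes, and Klf2 alone of the 3 passed 2-fold. Klf2, which represses Pparg in preadipocytes, had levels of -3.22, -1.15 and -1.03 on days 2, 8 and 20. It was 4.21-fold higher on day 8 (2.07, technical SD 0.104), and 7.75% of measured genes differed by as much. Its day 2 intensity was 71.0, and the difference was 1.42 with normexp. Klf3, a repressor of Cebpa that recruits the corepressor CtBP, was at 1.04, 1.91 and 1.84, or 1.83-fold higher on day 8 (0.87, technical SD 0.0646). Klf7, known from human preadipocytes as a brake on differentiation, was at -1.16, -0.24 and 0.33, or 1.90-fold higher on day 8 (0.92, technical SD 0.0761). Of the 3 restraining factors it was the one whose day 20 level exceeded that of day 8 by more than 2 technical SDs. Klf10, a gene induced early by TGF-beta, was at 1.01, 1.69 and 1.68, or 1.60-fold higher on day 8 (0.68, technical SD 0.0658).

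The threshold of 2-fold lay close to Klf3 and Klf7. With cyclic loess, and with the percentile taken over probes well above background on all 3 arrays, both passed it and 5 members were at least 2-fold higher on day 8. Of all measured genes, 16.0% were that much higher in each of these settings, against 13.8% in the main values.

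**Figure D2:**
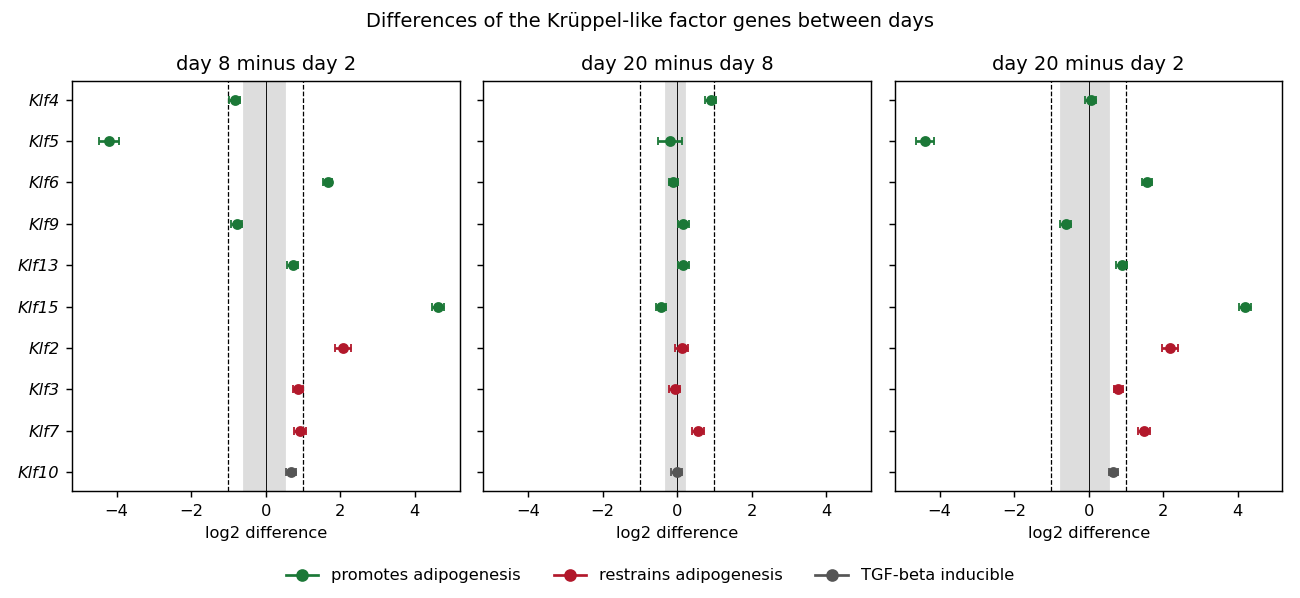
Log2 difference of each Krüppel-like factor in the 3 comparisons, later day minus earlier day, with bars of 2 technical SDs. Dashed lines mark 2-fold and the grey band runs between the quartiles of all measured genes. On day 8 against day 2 the 10 members spread from -4.20 to 4.63, and on day 20 against day 8 from -0.43 to 0.89.

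Between day 8 and day 20, the later stretch of the time course, 0 of 10 members passed 2-fold. Of 12321 measured genes, 3.58% passed it upward on day 20 and 1.74% downward, 5.32% in either direction, and 0.56% and 0.138% passed 4-fold. This comparison and that of days 8 and 2 share the day 8 array. The median member difference was 0.05, and that of all genes -0.05. Klf4 came nearest to the threshold, with a level of -0.16 on day 20 against -1.06 on day 8 (0.89, technical SD 0.079), and 6.79% of measured genes differed by as much. Klf7 was 1.48-fold higher on day 20 (0.57, technical SD 0.0789). Preadipocyte markers were also higher on day 20 than on day 8, by at least 2-fold in 3 of 9 (Ly6a at 2.58, Thy1 at 1.81 and Dlk1 at 1.47), while Lum was at -0.22. Of the 9 adipocyte markers, 1 passed 2-fold upward (Lep, 1.07) and 1 downward (Retn, -1.33), with a median of -0.55. Their part in the Klf4 and Klf7 values was not tested. Klf15 was 1.35-fold lower (-0.43, technical SD 0.0719), a value that turned to 0.23 when the labelled spike-in probes set the scale. Klf9 and Klf13 were higher by 0.17 and 0.16, a little over 2 technical SDs.

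Klf2, Klf3, Klf5, Klf6 and Klf10 differed by less than 2 technical SDs between days 20 and 8. Their differences were 0.12 for Klf2, -0.07 for Klf3, -0.19 for Klf5, -0.10 for Klf6 and -0.02 for Klf10. All 5 were above 0 with spike-in scaling, between 0.47 for Klf5 and 0.78 for Klf2. Under it the median over all genes was 0.61 in place of -0.05, which put 2 members, Klf4 at 1.55 and Klf7 at 1.23, at least 2-fold higher on day 20. The share of all measured genes passing 2-fold upward was then 16.6%, in place of 3.58%. Across all measured genes, those higher on day 20 made up 67.3% of the genes past 2-fold in the main values and 99.0% with spike-in scaling.

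Set against day 2 directly, day 20 had 4 of 10 members at least 2-fold higher and 1 lower, where 15.5% of 11888 measured genes passed 2-fold upward and 17% downward (32.4% in either direction). The higher ones were Klf15 (4.19), Klf2 (2.19), Klf6 (1.56) and Klf7 (1.49), and the lower one was Klf5 (-4.39, 21.0-fold). Klf15, Klf2 and Klf5 also passed 4-fold, as did 6.34% of measured genes upward and 3.75% downward. With normexp Klf2 was at 1.45, under 4-fold, and Klf5 at -3.02. Klf7 was under 2-fold at each single step. Klf4 was at 0.06, within 1 technical SD of 0, and Klf9 at -0.62. With spike-in scaling these became 0.74 for Klf4 and 0.07 for Klf9. The day 2 array is also in the comparison with day 8, so these values are not independent of those given first.

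The order of the days in the main values was set against the spread between spots. In Klf2, Klf3, Klf6 and Klf10 day 2 was lowest and the later days lay within 2 technical SDs of each other. Klf13 and Klf7 also had day 2 lowest, with day 20 above day 8, and Klf15 had day 2 lowest, with day 8 above day 20. Klf5 and Klf9 had their highest level on day 2, and Klf4 had its lowest level on day 8. Parts of this order depended on the scaling. With scaling on the spike-in probes Klf9 stood 0.07 higher on day 20 than on day 2, and Klf15 0.23 higher on day 20 than on day 8. With cyclic loess Klf2 stood 0.21 higher on day 20 than on day 8, which exceeds 2 technical SDs. The range between a member's highest and lowest day was between 0.68 (Klf10) and 4.63 (Klf15). Of the genes above background on all 3 arrays, 1.48% had a range at least as large as that of Klf15, 1.74% as that of Klf5, 9.52% as that of Klf2 and 56.0% as that of Klf10. The closest pair of members, by distance between their differences in the 2 successive steps, was Klf10 and Klf13 (0.18 log2 units), and the farthest was Klf5 and Klf15 (8.83). Klf3 and Klf10 followed at 0.20, too near to settle which pair is closest given the spread between spots.

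The sequence just before the transcription start was looked at for the members that were higher together. The RefSeq promoter table of assembly GRCm38.p6 matched 8 of the 10 members, all but Klf5 and Klf10. Shown are the 250 bases before the start of the 3 genes at least 2-fold higher on day 8, and of Klf4 and Klf9, the lower members with an entry. They are written 5′ to 3′ on the strand of the gene, with capitals for CACCC, the core of the sites that Krüppel-like factors bind, and for the GC box GGGCGG, on either strand. The windows are chr6:90462326-90462575 for Klf15, chr8:72318812-72319061 for Klf2, chr13:5861239-5861488 for Klf6 and chr19:23140976-23141225 for Klf9, all on the plus strand, and chr4:55532476-55532725 on the minus strand for Klf4.
Klf15: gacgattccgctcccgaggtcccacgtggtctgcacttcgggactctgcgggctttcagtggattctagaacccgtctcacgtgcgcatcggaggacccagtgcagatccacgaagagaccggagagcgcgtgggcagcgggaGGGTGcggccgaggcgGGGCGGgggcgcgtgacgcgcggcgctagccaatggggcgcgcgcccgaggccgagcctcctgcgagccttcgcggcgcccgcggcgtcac
Klf2: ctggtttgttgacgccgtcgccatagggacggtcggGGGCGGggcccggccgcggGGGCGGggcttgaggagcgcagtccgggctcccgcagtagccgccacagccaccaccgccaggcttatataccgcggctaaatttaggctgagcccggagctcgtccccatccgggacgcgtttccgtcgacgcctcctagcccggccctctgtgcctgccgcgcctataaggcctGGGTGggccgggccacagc
Klf6: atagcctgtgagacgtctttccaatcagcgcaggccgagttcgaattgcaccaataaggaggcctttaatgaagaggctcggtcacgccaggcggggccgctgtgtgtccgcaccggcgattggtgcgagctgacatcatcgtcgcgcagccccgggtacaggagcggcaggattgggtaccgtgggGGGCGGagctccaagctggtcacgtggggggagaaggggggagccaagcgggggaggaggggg
Klf4: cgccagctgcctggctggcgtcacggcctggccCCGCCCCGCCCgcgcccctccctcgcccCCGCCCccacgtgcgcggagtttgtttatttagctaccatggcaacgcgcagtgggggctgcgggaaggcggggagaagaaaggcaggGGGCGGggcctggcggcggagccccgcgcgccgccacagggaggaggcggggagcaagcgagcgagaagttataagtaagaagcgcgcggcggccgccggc
Klf9: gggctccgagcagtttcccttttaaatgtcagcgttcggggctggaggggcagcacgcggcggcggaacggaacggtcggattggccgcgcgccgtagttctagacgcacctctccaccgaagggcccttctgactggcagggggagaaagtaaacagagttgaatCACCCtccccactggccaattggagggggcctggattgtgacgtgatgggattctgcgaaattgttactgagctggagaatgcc

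In these windows Klf15 had 1 CACCC and 1 GGGCGG match, Klf2 had 1 and 2, Klf6 had 0 and 1, Klf4 had 0 and 4, and Klf9 had 1 and 0. Matches of the 2 motifs did not overlap in any of these 5 windows. Of the 8 member promoters, 6 held CACCC and 7 held GGGCGG, on either strand, where 52.0% and 32.7% of 32851 promoters of the same length did. The member windows were 59.2% to 78.4% G or C, above the median of 52.4% for all promoters, and the part of base composition in these motif shares was not tested. The E-box CACGTG was present in 3 of 8, those of Klf4, Klf6 and Klf15, against 6.02% of all promoters. TGACGTCA, the cyclic AMP response element, ACANNNTGT, a core of glucocorticoid receptor sites, the TATAAA box and the CArG box bound by serum response factor had 0 matches in the 8 windows, against 1.55%, 5.84%, 12.4% and 1.47% of all promoters. A match is a match of letters and says nothing of binding in these cells.

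The wider family was measured in part. Of 7 further Klf genes, 4 were well above background on all 3 arrays, and Klf8, Klf14 and Klf17 on none. On day 8 against day 2, Klf1, the factor of red blood cells, was higher by 1.97 (technical SD 0.146) and Klf11, a close relative of Klf10, by 1.46 (0.14), while Klf12 was at 0.72 (0.175) and Klf16 at 0.50 (0.0743). Processed intensities of Klf1, Klf11 and Klf12 on day 2 lay between 23.2 and 36.2, which is dim, though each was marked well above background. From day 8 to day 20 these 4 genes lay between -0.64 (Klf1) and 0.40 (Klf12). The Sp factors share the zinc finger type. Of the 4 of 9 that were measured, 0 passed 2-fold on day 8 against day 2, with Sp2 at 0.87, Sp4 at 0.42, Sp1 at 0.35 and Sp3 at -0.16. Between days 20 and 8 they differed by -0.27 (Sp4) to 0.36 (Sp2).

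**Figure D3:**
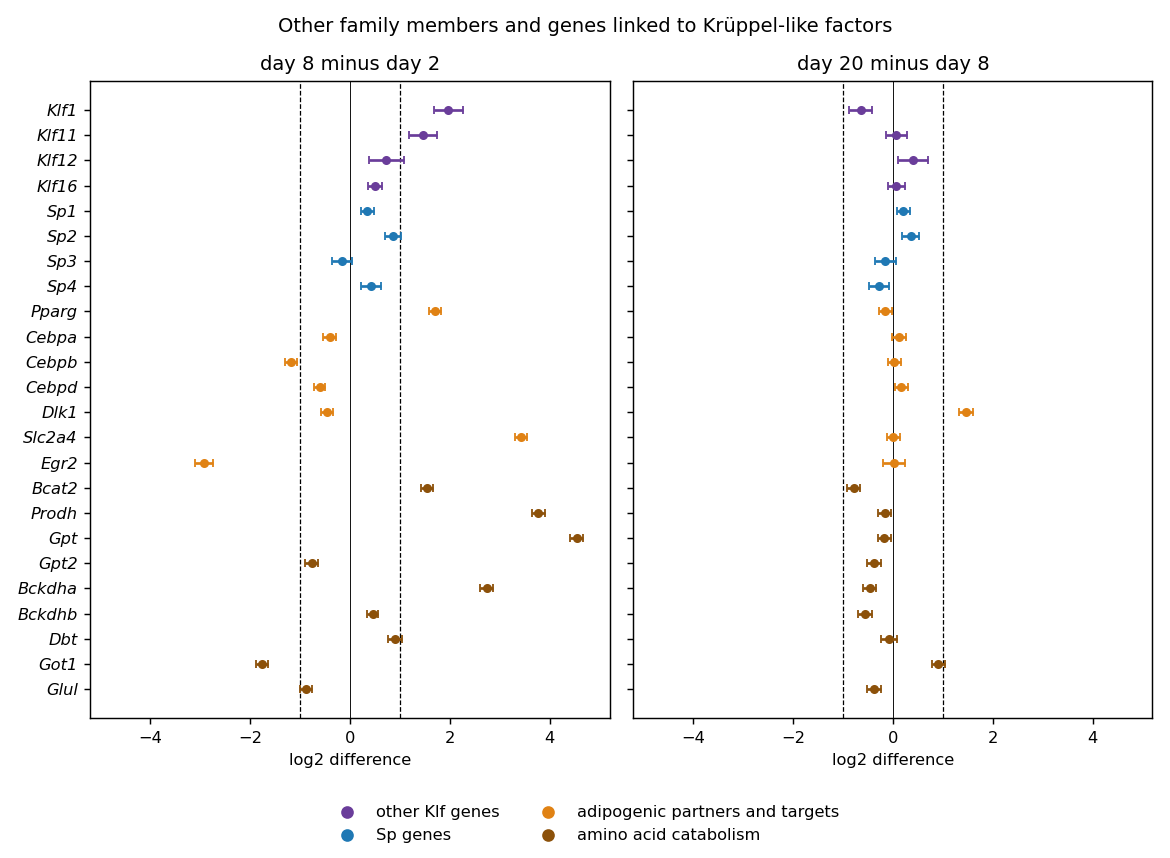
Log2 difference of further family genes and of genes linked to Krüppel-like factors, day 8 minus day 2 and day 20 minus day 8, with bars of 2 technical SDs and dashed lines at 2-fold. Gpt, Prodh and Slc2a4 lay furthest to the right on day 8 against day 2 (4.54, 3.77 and 3.42), and Dlk1 was the 1 gene past 2-fold on day 20 against day 8 (1.47).

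Genes that these factors act on or with in adipocytes were set beside them. Of 7 measured genes, 2 passed 2-fold upward and 2 downward on day 8 against day 2 (median -0.46). Slc2a4, reported to be raised by Klf15, was higher by 3.42 (technical SD 0.0637), and Pparg, the nuclear receptor that Klf5, Klf9 and Klf15 activate and Klf2 represses, by 1.71 (0.0597). Egr2, which works with Klf4, was lower on day 8 (-2.92, technical SD 0.0927) and Cebpb, the gene they activate, was at -1.18 (0.0596). Cebpd was at -0.61, Dlk1 at -0.46 and Cebpa, which Klf3 represses, at -0.40. Acss1 was not well above background on any day. Between days 20 and 8, Dlk1 was higher on day 20 by 1.47 (0.0661) while Klf6 stood at -0.10, and the other 6 lay between -0.15 (Pparg) and 0.17 (Cebpd). Against day 2, Dlk1 on day 20 was at 1.01, just past 2-fold.

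Amino acid breakdown is known in mouse liver and muscle as a process that Klf15 raises. Of 9 measured genes of that list, 4 passed 2-fold upward and 1 downward on day 8 against day 2, and the median was 0.90. Gpt, an alanine aminotransferase, was at 4.54 (technical SD 0.0638), Prodh, proline dehydrogenase, at 3.77 (0.0644), Bckdha, a subunit of the branched-chain ketoacid dehydrogenase, at 2.74, and Bcat2, the mitochondrial branched-chain aminotransferase, at 1.54. Got1, an aspartate aminotransferase, was at -1.76. By day 20, 0 of 9 passed 2-fold relative to day 8 and the median was -0.38, with values between -0.79 (Bcat2) and 0.91 (Got1), beside Klf15 at -0.43.

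Cofactors through which Krüppel-like factors act, and the ubiquitin ligases that degrade them, were all measured. Of these 17 genes, 0 passed 2-fold on day 8 against day 2 (median -0.09) or on day 20 against day 8 (median 0.02). The CtBP genes Ctbp1 and Ctbp2 were at -0.10 and 0.25 on day 8 against day 2, Sin3a at -0.25, and Fbxw7, a ligase adaptor for Klf5, at -0.48 (these 4 were picked as examples with their values known). On day 20 against day 2, the deacetylase gene Hdac1 was at -1.13 and the ligase gene Smurf1 at 1.03.

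Klf9 and Klf15 are targets of the glucocorticoid receptor, and genes of that response differed in both directions. On day 8 against day 2, 2 of 15 measured genes passed 2-fold upward and 5 downward (median -0.39). Lcn2 was at -6.42, Fkbp5, a receptor co-chaperone, at -3.53, Sgk1, a kinase, at -2.33 and Tsc22d3, also called GILZ, at -1.68, beside Klf9 at -0.78 and Klf15 at 4.63. The receptor gene Nr3c1 was higher by 1.87 and Errfi1 by 1.12. Between days 20 and 8, 0 of 15 passed 2-fold.

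Klf2, Klf4, Klf6 and Klf10 respond quickly to serum and growth factors in many cells, as immediate early genes do. Of 20 measured immediate early genes, 5 passed 2-fold upward on day 8 against day 2 and 4 downward (median -0.16). Ier3 was at 3.69, Jund at 2.33, Btg2 at 1.82 and Fosl2 at 1.22, against Egr2 at -2.92, Fosl1 at -1.42, Ier2 at -1.23 and Junb at -1.04. In the later step Atf3, a stress-induced factor, was the 1 gene past 2-fold (1.14), beside Klf4 at 0.89.

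Genes whose pair of successive differences was most like that of a member were looked up among 11809 other genes above background on all 3 arrays. The 3 nearest to Klf15 were Phyhd1, Ppp1r3c, which targets a phosphatase to glycogen, and Tst, a mitochondrial sulfurtransferase, at distances of 0.04, 0.15 and 0.18 log2 units. Nearest to Klf5 were Trip13 and Ska3, both acting in mitosis, and Ankle1, at 0.10, 0.20 and 0.22. Nearest to Klf2 were Mccc1, Cnp and Itpr2 (0.03 to 0.05), nearest to Klf6 were Nrep, Lamb2 and Map3k8 (0.01 to 0.04), and nearest to Klf7 were Adcy9, Rab43 and Etv1 (0.02 to 0.05). With 3 arrays a pattern is 2 numbers, and the distances describe these arrays only. The third neighbour lay 0.22 from Klf5 and 0.18 from Klf15, and at most 0.05 from Klf2, Klf6 and Klf7.

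**Figure D4:**
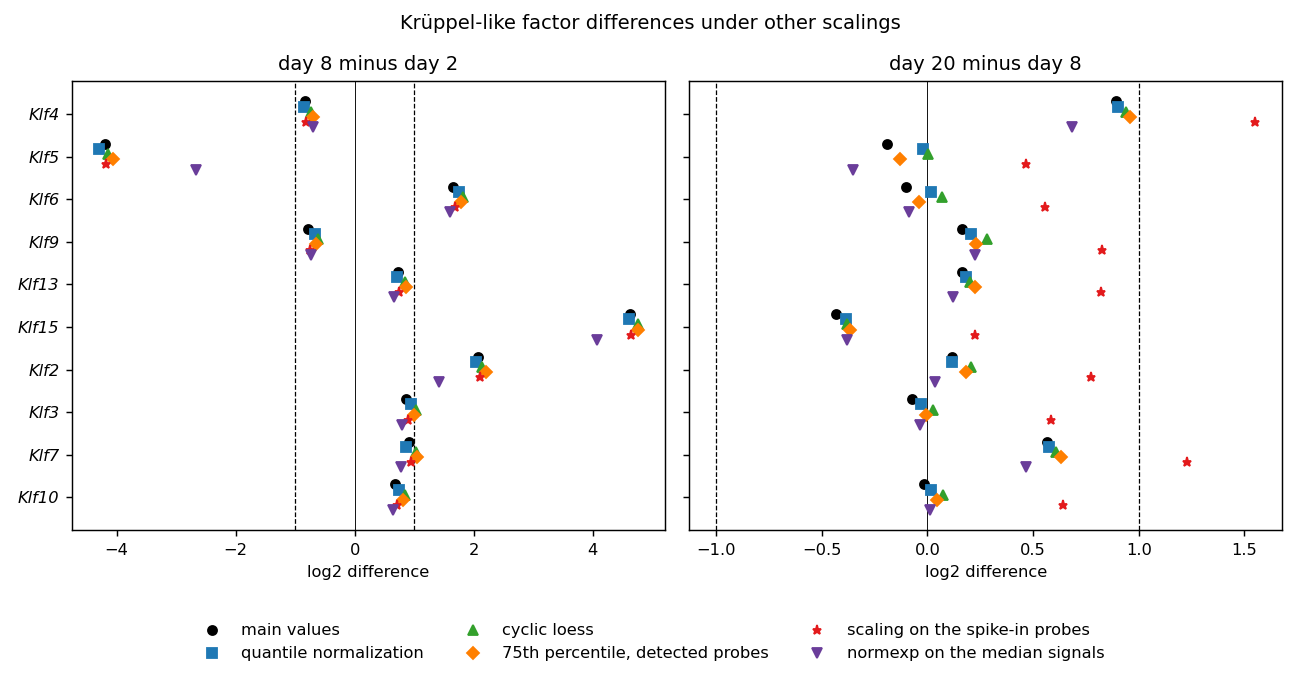
Log2 difference of each Krüppel-like factor under 6 ways of correcting and scaling the arrays, day 8 minus day 2 and day 20 minus day 8, with dashed lines at 2-fold (the horizontal axes differ in range). On day 8 against day 2 every member kept its sign in all 6, whereas on day 20 against day 8 Klf3, Klf5, Klf6, Klf10 and Klf15 changed sign in at least 1, and Klf4 and Klf7 passed 2-fold with spike-in scaling.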

How the data were processed

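RNA of 3T3-L1 cells was measured on 3 Agilent 1-colour arrays, 1 per day, on 1 slide with 1 scan time per the file headers. The deposited intensity values are linear spot brightness, background-corrected in the scanner software (per the submitters' processing notes, Feature Extraction 10.7.1.1) and not scaled between arrays. Yes or no marks for background, saturation and outliers are further deposited columns. The authors' deposited log2 values equal log2 of that intensity plus a constant per array (-9.37, -9.31 and -9.86; 100% of probes within 0.01); column medians were -4.80, -4.69 and -4.89. Other upstream steps are not given in the sources used here.

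Control and outlier spots were left out and spots of a probe averaged on the log2 scale. Of 39429 probes, 26581 were named through RefSeq accessions (assembly GRCm38.p6, whereas the array design names an earlier build). A gene took its brightest probe. Differences were taken where a gene was well above background on both arrays. Technical SDs came from 244 to 245 probes printed 10 times, as a running median over 41 probes. Genes at the dim end share 1 spot SD per array. Klf5 had the same value as genes below background on days 8 and 20 (0.123 and 0.104). With 1 array per day no test was run; the number of arrays limits the precision. The functions were tested on simulated data. Members, lists, roles and motifs were chosen with earlier results of these data known. Named genes were all members and further Klf and Sp genes, all of the target and adipocyte lists or up to 4 genes past 2-fold per direction in others, and the 3 nearest patterns; some named by this rule are not reported here. Normalization alternatives used limma 3.58.1 in R 4.3.3, and normexp an offset of 50; the rest used Python 3.11.15 with numpy 2.4.6 and pandas 2.3.3.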

Additional observations from a re-analysis of the deposited data

How the results depend on the processing

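Each member difference was recomputed in 9 alternative settings. From day 2 to day 8 the members kept their sign in every setting that gave them a value, though some settings could not move their values, as given below. The number at least 2-fold higher on day 8 was 3, and 5 with cyclic loess and with the percentile over probes well above background on all 3 arrays, which added Klf3 and Klf7. The share of all measured genes that much higher was 13.8% in the main values and 16.0% in each of these settings. Scaling on 8 spike-in probes gave 2 members at least 2-fold higher on day 20 than on day 8 (0 otherwise) and 7 higher on day 20 than on day 2 (4 in the main values, 6 with cyclic loess and 5 with the percentile over detected probes). The whole array moved too. For day 20 against day 8, the share of all measured genes passing 2-fold upward was 16.6% with spike-in scaling and 3.58% in the main values. For day 20 against day 2 it was 31.8% and 15.5%, with 20.5% under cyclic loess and 19.0% under the percentile over detected probes. Spike-in scaling turned Klf15 on day 20 against day 8 to 0.23 and Klf9 on day 20 against day 2 to 0.066. Requiring a signal above the lower quartile of genes left out Klf2 and Klf5, so the count at least 2-fold lower was 0 on day 8 against day 2 and 0 on day 20 against day 2, and the higher counts were 2 and 3. Normexp was planned on mean signals, which the files do not hold, and was run on median signals, an alternative chosen after seeing the data. It gave -2.67 for Klf5 and 1.42 for Klf2 on day 8 against day 2, and -3.02 and 1.45 on day 20 against day 2. These are the members with the dimmest spots, whose differences the offset of normexp shrinks by itself. Over all measured genes, the share of higher genes among those past 2-fold on day 20 against day 8 was 67.3%, against 83.0% with cyclic loess, 99.0% with spike-in scaling and 34.5% with no filter on dim probes; on day 20 against day 2 it was 47.7%, against 65.0%, 84.3% and 44.6%, and 59.8% with the percentile over detected probes. Normexp gave 207 higher and 100 lower genes on day 20 against day 8, in place of 441 and 214. Each member had 1 probe and was well above background on all 3 arrays. Averaging of probes and dropping the filter on dim probes therefore could not move its values. The deposited table takes off nearly the same constant per array as the main scaling (9.37, 9.31 and 9.86). It therefore moved no member value by as much as 1 technical SD, and is no separate check. No paired analysis was possible because each day had 1 array. The spread between cultures is unknown.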

Other observations

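Klf10 is a gene of the TGF-beta response and of the circadian clock's output, and some genes of both systems differed more between days than Klf10 itself (0.68 on day 8 against day 2, -0.02 on day 20 against day 8). So did many genes of any kind, as 41.6% and 96.4% of all measured genes differed by at least as much as Klf10 in these comparisons. Of 13 measured genes of the TGF-beta list, 2 passed 2-fold upward on day 8 against day 2, the ligand genes Tgfb2 (3.12) and Tgfb1 (1.28), and 4 downward, among them Tgfb3 (-1.39), Id1 (-1.15) and Skil (-1.05). In the later step, day 20 against day 8, 3 of 14 passed 2-fold upward and 0 downward, among them Ccn2, a matricellular protein, at 2.78 and Smad7, the inhibitory Smad, at 1.51.

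Of 15 measured clock genes, 7 passed 2-fold upward on day 8 against day 2 and 1 downward (median 0.72). Dbp was at 4.74, Bhlhe40 at 2.37 and Per3 at 2.31, and Clock was at -1.39. On day 20 against day 8, 0 of 17 passed 2-fold. The hour at which each culture was collected is not in the labels, and its part in these values was not tested.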
